A study of Homo sapiens with 24 samples.

Results

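The transcriptional change of DNMT1-AID cells between day 0 and day 4 of auxin was measured against that of WT cells over the same days. HCT116 is a human colorectal carcinoma line, here carrying the plant F-box protein OsTIR1 under a doxycycline-inducible promoter. WT cells have no tagged protein. In DNMT1-AID cells an auxin-inducible degron (AID) and the red fluorescent protein mRuby2 were knocked into the endogenous DNMT1 gene at its N-terminus with Cas9, so that auxin triggers degradation of the protein. The study made 3 clones of each tagged construct, and the labels do not say which clone gave which library. Day 0 cells had received no auxin. For auxin treatment, cells of both lines were first kept for 1 day in doxycycline with 20 µM auxinole, an inhibitor of OsTIR1, and the labels do not say whether day 0 cells were taken before or after that step. Day 4 cells had been kept for 4 days in 500 µM auxin with 2 µg/ml doxycycline, in WT and DNMT1-AID cells alike. The members were 12 of the 24 RNA-seq libraries of the series, with 3 in each of WT day 0, WT day 4, DNMT1-AID day 0 and DNMT1-AID day 4. For each gene the value compared was the log2 fold change from day 0 to day 4 in DNMT1-AID cells minus that in WT cells. On the log scale this difference leaves out what auxin, doxycycline and culture time do alike to both lines. It likewise leaves out a processing difference shared by the lines, since file headers place the day 0 libraries in one alignment folder and the day 4 libraries in another.

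DNMT1 copies methylation onto the new DNA strand after replication, and UHRF1 brings it to hemimethylated sites. Promoter methylation keeps many germline genes silent in somatic and cancer cells, among them the cancer/testis genes of the X chromosome. Loss of DNA methylation is known to raise transcription of repeats whose RNA can be sensed as viral. Sensors such as RIG-I and MDA5 then induce interferons, which act through JAK kinases and IRF factors on the promoters of interferon-stimulated genes.

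The libraries held between 15824804 and 21952477 counts on genes, and 26975 of 58735 Ensembl genes had a count in at least 1 of them. After low counts were filtered, 14370 genes remained. They were tested with the quasi-likelihood test of edgeR, and p-values were adjusted after Benjamini and Hochberg. Calls needed an adjusted p below 0.05 together with a log2 difference beyond 1 in either direction. CPM are counts scaled to a common library size with TMM factors over the 12 libraries. Counts fell with gene length relative to their group in 5 libraries. Spearman's rho across 14370 genes was -0.378 in WT replicate 3, -0.248 in DNMT1-AID replicate 1 and -0.157 in DNMT1-AID replicate 2 of day 0, and -0.227 in WT replicate 1 and -0.139 in DNMT1-AID replicate 3 of day 4. Against the mean of the 12 libraries, rho at day 0 was 0.273, 0.267 and -0.167 in WT replicates 1 to 3. In DNMT1-AID replicates 1 to 3 of day 0 it was -0.176, -0.14 and 0.16. A length trend that differs between the lines does not cancel in the difference of day effects. Of 15 markers of colorectal epithelial cells 10 were above 1 CPM on average. Apart from the collagen gene COL1A1, at most at 13.4 CPM, no marker of lymphocytes, myeloid cells, fibroblasts or endothelial cells exceeded 1.81 CPM in any library.

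The degron acts on the protein, so the DNMT1 transcript does not check the depletion. DNMT1 (ENSG00000130816, hg38 chromosome 19, 10133345 to 10231286) was at 168, 177 and 74.2 CPM in WT day 0 and at 23, 23.7 and 45.1 CPM in WT day 4. It was at 28.1, 30 and 72.4 CPM in DNMT1-AID day 0 and at 16.4, 12.9 and 16.1 CPM in DNMT1-AID day 4. WT replicate 3 of day 0 was low and DNMT1-AID replicate 3 of day 0 high within their groups, and the DNMT1-AID day 4 libraries lay below the other 9. The transcript fell in both lines, with a log2 fold change of -2.19 in WT and -1.52 in DNMT1-AID, and the difference of 0.67 (standard error 0.65, adjusted p = 0.659) did not pass the test. UHRF1, the partner of DNMT1, had a difference of 0.64 (standard error 0.50, adjusted p = 0.579).

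The difference of day effects was called higher for 19 genes and lower for 1 gene, which are 0.132% and 0.00696% of those tested. Below, to rise or fall beyond WT means such a call, whichever line moved. In DNMT1-AID cells alone 1254 genes rose and 975 fell from day 0 to day 4 (8.73% and 6.78%), and in WT cells 771 rose and 922 fell (5.37% and 6.42%). Each of these day effects crosses the alignment folders. Within a line, auxin, culture time and processing cannot be told apart. Both lines shared 575 of the genes that rose, 45.9% of those in DNMT1-AID cells and 74.6% of those in WT cells. They shared 487 of those that fell, 49.9% and 52.8% of the 2 sets. Of the 1254 genes that rose in DNMT1-AID cells, 16 were also called beyond WT. The standard error of the difference had a median of 0.257 on the log2 scale over all genes, against 0.182 for either day effect alone. At an unadjusted p under 0.05, 848 genes were higher and 981 lower beyond WT, 5.90% and 6.83% of the genes tested, and the median difference over all genes was -0.015. DESeq2, the tool of the study's methods, called 82 genes higher and 10 lower, and these included all 19 genes called higher by edgeR.

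Of the 19 genes called higher, 12 belong to the list of interferon-stimulated genes. They were OASL, PSMB8, IFITM1, BATF2, IFI6, IFI27, IFITM2, APOL6, IRF7, LAMP3, EPSTI1 and PSMB9. The other 7 were TNFRSF1B, PRF1, ATF5, C3, KRT23, SDK2 and MLXP1. In 18 of the 19, every DNMT1-AID day 4 library was above each of the other 9 libraries, which held for 8.64% of all genes tested. The 19 were called on these same libraries, so this describes them and is no separate support. The exception was MLXP1. Of the 19, 16 were called as rising from day 0 to day 4 in DNMT1-AID cells. In WT cells 10 of the 19 rose over the same days and 4 fell. PRF1 was the only one of the 19 called between the lines at day 0 in the fit of 12 libraries, a call that a fit of the 6 day 0 libraries alone did not make. None of the 19 lies on the X chromosome.

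**Figure D1:**
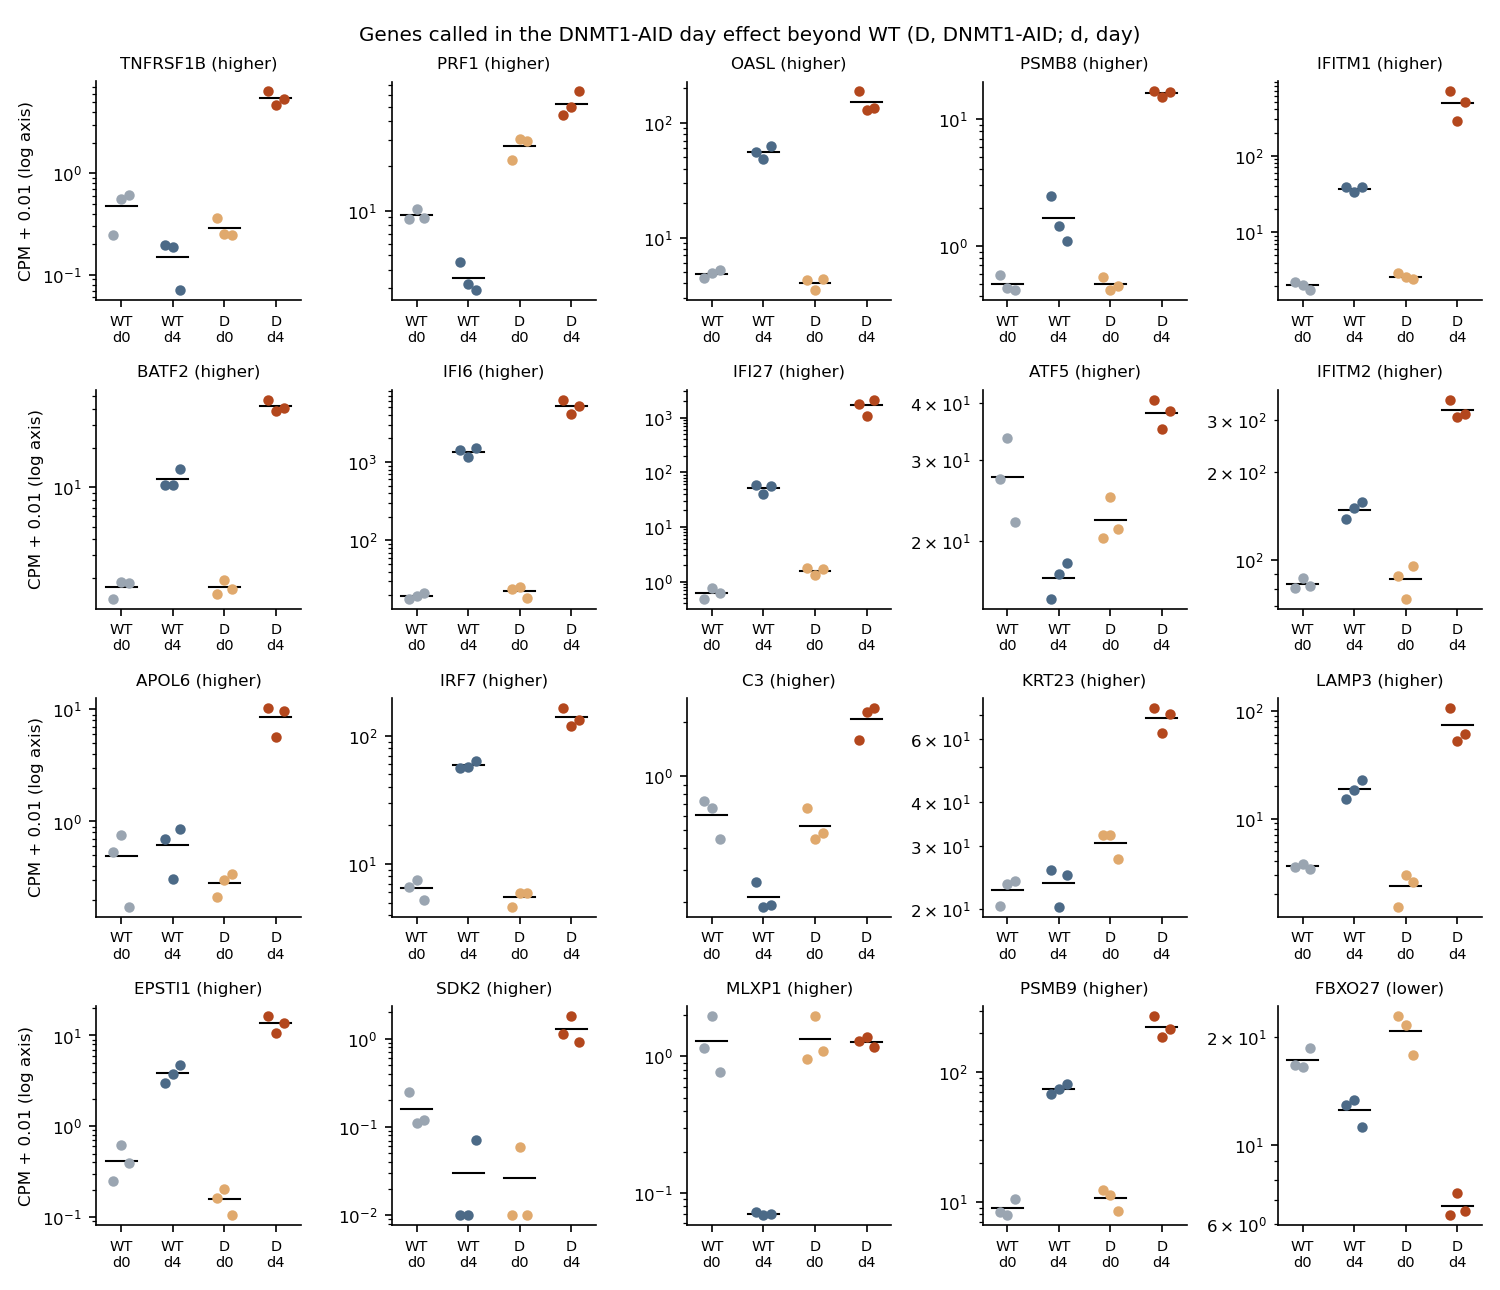
CPM plus 0.01 on a log axis for the 20 genes called beyond WT, with 1 point per library, a line at each group's mean and 3 libraries per group. DNMT1-AID day 4 stands above the other 9 libraries in every panel called higher except MLXP1, where WT day 4 stands below the rest, and stands below them for FBXO27.

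The promoters of interferon-stimulated genes carry the response element that IRF complexes bind, with the core GAAANNGAAA. A few are shown because 12 of the 19 genes come from this list. RefSeq promoters of build GRCh38.p14, from 250 bases before to 50 bases after a transcription start, matched 10 of the 19 genes by symbol, and 7 of these held the core on either strand. BATF2, PSMB9 and PRF1 did not hold it. In the interferon-stimulated list, 39 of the 56 genes with a promoter entry held it (69.6%), and so did 44 of their 73 promoters (60.3%). Of all tested genes with an entry 408 of 10786 held it (3.78%), and so did 436 of their 15681 promoters (2.78%). The 250 bases before the start of 4 called genes, chosen among those that held the core, are given below. They run 5′ to 3′ on the strand of the gene, with the core or its reverse complement in capitals. IFI6 (chr1:27672193-27672442, minus strand) held 3 matches, IFI27 (chr14:94110486-94110735, plus strand) 2, and EPSTI1 (chr13:42992242-42992491, minus strand) and TNFRSF1B (chr1:12166741-12166990, plus strand) 1 each.
IFI6: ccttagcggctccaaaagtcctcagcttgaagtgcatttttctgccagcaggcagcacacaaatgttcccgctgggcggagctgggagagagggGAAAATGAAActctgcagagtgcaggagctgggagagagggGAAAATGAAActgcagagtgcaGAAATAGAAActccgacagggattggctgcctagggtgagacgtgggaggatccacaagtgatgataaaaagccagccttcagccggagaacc
IFI27: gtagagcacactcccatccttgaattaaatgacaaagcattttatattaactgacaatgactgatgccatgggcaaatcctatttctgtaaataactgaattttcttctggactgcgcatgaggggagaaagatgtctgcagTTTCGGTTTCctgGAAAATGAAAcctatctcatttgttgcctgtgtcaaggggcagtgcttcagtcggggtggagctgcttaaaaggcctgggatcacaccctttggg
EPSTI1: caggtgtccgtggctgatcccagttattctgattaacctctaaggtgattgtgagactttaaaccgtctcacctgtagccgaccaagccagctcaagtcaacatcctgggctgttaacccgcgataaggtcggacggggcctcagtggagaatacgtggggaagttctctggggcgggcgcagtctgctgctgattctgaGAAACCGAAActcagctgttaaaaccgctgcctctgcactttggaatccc
TNFRSF1B: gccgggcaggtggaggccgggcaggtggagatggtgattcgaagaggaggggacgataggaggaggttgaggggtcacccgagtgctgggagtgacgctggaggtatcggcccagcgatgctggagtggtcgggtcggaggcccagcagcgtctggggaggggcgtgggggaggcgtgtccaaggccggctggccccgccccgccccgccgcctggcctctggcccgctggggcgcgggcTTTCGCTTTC
The 250 bases shown held 27 CpG dinucleotides in TNFRSF1B, 18 in EPSTI1, 9 in IFI6 and 4 in IFI27. TNFRSF1B is not in the interferon-stimulated list.

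Interferon-stimulated genes as a group rose in WT cells too, and rose further in DNMT1-AID cells. The rise within each line also carries the difference of alignment folders. Of 89 genes on the list 76 were tested, and 62 of them rose from day 0 to day 4 in WT and 73 in DNMT1-AID cells. Over all genes tested 5.37% rose in WT and 8.73% in DNMT1-AID cells. Beyond WT, 12 rose and 0 fell, and 57 had an unadjusted p under 0.05 in the higher direction and 0 in the lower. Over all genes tested 0.132% rose and 0.00696% fell beyond WT. At that unadjusted p 5.90% were higher and 6.83% lower. The difference was over 0 in 75 of the 76, TRIM25 at -0.30 being the exception. For the other 7 members tested at least 1 group had no library above 3 counts, and some of these entered the test through DNMT1-AID day 4, where they are high. Over the 69 members that were above 3 counts in some library of each group, the median log2 fold change was 1.98 in WT and 3.02 in DNMT1-AID cells, and the median difference was 1.01. Over all 14159 genes of that kind the median difference was -0.021. In 71 of the 76 members every DNMT1-AID day 4 library lay above the other 9, as for 8.64% of all genes tested. The 76 include the 7 members with a group at or under 3 counts. DESeq2 called 24 of the list higher.

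**Figure D2:**
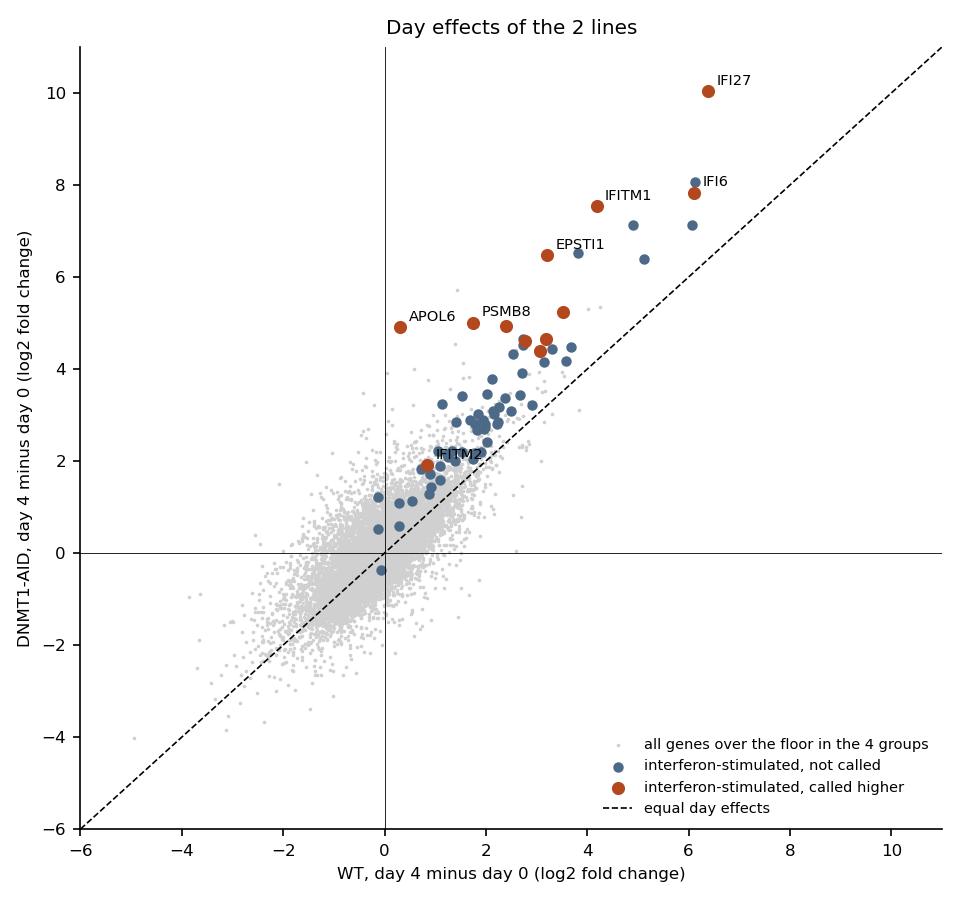
Log2 fold change from day 0 to day 4 in DNMT1-AID cells (vertical) against that in WT cells (horizontal) for genes above 3 counts in some library of each group, with the line of equal day effects dashed. Of 69 interferon-stimulated genes 68 lie above the line, and the called ones reach from IFITM2 near the lower left of the group to IFI27 at the upper right.

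The summed level of the 88 listed genes found in the files was 3721, 3820 and 3984 CPM in WT day 0 and 4265, 4254 and 4045 CPM in DNMT1-AID day 0. It was 14165, 12901 and 14684 CPM in WT day 4 and 37174, 27816 and 32960 CPM in DNMT1-AID day 4. The lines were close to each other at day 0, though each DNMT1-AID library lay above each WT library. At day 4 too the lowest DNMT1-AID library lay above the highest WT library. Such a sum is carried mostly by the most abundant members.

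Of the called members, IFI27 and IFI6 had the largest day effects in each line. IFI6 (ENSG00000126709, chromosome 1, 27666061 to 27672218) encodes a mitochondrial protein that delays apoptosis. It was at 18.1, 19.4 and 21.2 CPM in WT day 0 and at 24.3, 25.5 and 18.3 CPM in DNMT1-AID day 0. It reached 1412, 1145 and 1490 CPM in WT day 4 and 6236, 4091 and 5214 CPM in DNMT1-AID day 4. The groups overlapped at day 0 and were apart at day 4, and the difference of day effects was 1.73 (standard error 0.25, adjusted p = 0.0121). IFI27 (ENSG00000165949, chromosome 14, 94104836 to 94116698), an interferon-inducible membrane protein, was at 57.9, 40.3 and 56.7 CPM in WT day 4 and at 1784, 1074 and 2118 CPM in DNMT1-AID day 4. At day 0 it was at 0.479, 0.754 and 0.598 CPM in WT and 1.76, 1.31 and 1.66 CPM in DNMT1-AID cells. DNMT1-AID cells were thus above WT on both days without overlap, and the difference of day effects was 3.64 (standard error 0.51, adjusted p = 0.0121).

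The interferon-induced transmembrane proteins block entry of enveloped viruses, and 2 of the 3 tested rose beyond WT. Over all genes tested 0.132% did. IFITM1 (ENSG00000185885, chromosome 11, 313506 to 315272) was at 38.9, 33.4 and 38.4 CPM in WT day 4 and at 687, 285 and 501 CPM in DNMT1-AID day 4. At day 0 no library of either line exceeded 2.92 CPM. Its difference was 3.35 (standard error 0.42, adjusted p = 0.0117). IFITM2 had a smaller difference of 1.07 (standard error 0.16, adjusted p = 0.0143), from 148.5 ± 10.4 CPM (SD, n = 3) in WT day 4 and 324.1 ± 24 CPM (SD, n = 3) in DNMT1-AID day 4. IFITM3 had a difference of 0.83 (adjusted p = 0.0567). The annotated span of IFITM2, 307631 to 315272, takes in IFITM1, and the genes are close in sequence, so reads of one may have been counted for another.

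In the oligoadenylate synthetase family, most members of which make the activator of RNase L, OASL was called. OASL (ENSG00000135114, chromosome 12, 121019111 to 121039242) is the synthetase-like member that lacks this enzyme activity and enhances RIG-I signalling. It was at 56.3, 48.2 and 62.7 CPM in WT day 4 and at 188, 129 and 136 CPM in DNMT1-AID day 4, with between 3.46 and 5.21 CPM in the 6 day 0 libraries. The difference was 1.71 (standard error 0.23, adjusted p = 0.0117). OAS1 and OAS3 had differences of 1.93 and 1.90 and adjusted p values of 0.104 and 0.107. OAS2 had 0 counts in all 6 day 0 libraries and was at 0.363 CPM on average in WT day 4 and 20.7 CPM in DNMT1-AID day 4, and with 0 counts in both day 0 groups its difference has no usable error.

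In antigen processing and presentation, 2 of 13 tested genes rose beyond WT and 10 had an unadjusted p under 0.05 in the higher direction. Over all genes tested these shares were 0.132% and 5.90%. PSMB8 (ENSG00000204264, chromosome 6, 32840717 to 32844703), a catalytic subunit of the immunoproteasome, was at 2.48, 1.41 and 1.09 CPM in WT day 4 and at 16.5, 14.9 and 16.4 CPM in DNMT1-AID day 4. No day 0 library exceeded 0.575 CPM. Its difference was 3.26 (standard error 0.45, adjusted p = 0.0117), while that of PSMB9, another such subunit, was 1.33 (standard error 0.24, adjusted p = 0.0437). The annotated ends of PSMB8 and PSMB9 overlap on opposite strands, so their counts may not be fully separate. The peptide transporter subunits TAP1 and TAP2 had differences of 0.38 and 0.58, and the class I light chain B2M of 0.95, with adjusted p values of 0.478, 0.177 and 0.138.

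Among transcription factors of the interferon response, IRF7 and BATF2 rose beyond WT. IRF7 (ENSG00000185507, chromosome 11, 612553 to 615999), which drives interferon genes, was at 56.3, 56.9 and 63.8 CPM in WT day 4 and at 165, 119 and 133 CPM in DNMT1-AID day 4, and the difference was 1.46 (standard error 0.22, adjusted p = 0.0159). BATF2, a basic leucine zipper factor, was at 11.6 ± 1.89 CPM (SD, n = 3) in WT day 4 and 42.0 ± 4.47 CPM (SD, n = 3) in DNMT1-AID day 4, with a difference of 1.85 (standard error 0.26, adjusted p = 0.0117). STAT2 had a difference of 0.87 (adjusted p = 0.111). The RNA sensors IFIH1, RIGI and DHX58 had differences of 0.94, 0.78 and 1.93 with adjusted p values from 0.115 to 0.146. In the IFIT, PARP and TRIM families, with 4, 4 and 5 genes tested, 0 were called. The values of members that were not called were chosen after the results were seen.

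The other called members of the list were APOL6, EPSTI1 and LAMP3. APOL6 (ENSG00000221963, chromosome 22, 35648395 to 35668409), an intracellular apolipoprotein L, did not pass the test from day 0 to day 4 in WT cells (log2 fold change 0.31, adjusted p = 0.665). It was at 0.682, 0.294 and 0.846 CPM in WT day 4 and at 10.3, 5.67 and 9.65 CPM in DNMT1-AID day 4. The difference was 4.60 (standard error 0.70, adjusted p = 0.0159). EPSTI1, expressed in epithelial cells next to stroma, had a difference of 3.26 (standard error 0.55, adjusted p = 0.0339), and LAMP3, a lysosomal membrane protein of mature dendritic cells, of 2.55 (standard error 0.41, adjusted p = 0.0316).

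Interferon ligands were near 0. None of 9 ligand genes examined passed the filter, and the highest count in any library was 23. IFNL3, a type III interferon, had between 7 and 23 counts in DNMT1-AID day 4, between 2 and 4 in WT day 4, and 0 in the 6 day 0 libraries. IFNL1 had between 6 and 15 counts in DNMT1-AID day 4 and at most 4 elsewhere, and IFNB1 at most 3 in any library. IFNL2, with between 3 and 6 counts in DNMT1-AID day 4 and at most 3 elsewhere, is a near-identical copy of IFNL3. Counts could be split between these copies. Of 16 receptor and signalling genes 14 were tested, with differences between -0.76 and 1.04. None of them passed, 0 being called, and the unadjusted p was under 0.05 for 1. That gene was SOCS1, the feedback inhibitor of JAK kinases, at 4.31 CPM in WT day 4 and 10.7 CPM in DNMT1-AID day 4 (difference 0.98, adjusted p = 0.291). The genes of these last groups were chosen after the results of the interferon list were known.

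Outside the interferon list the gene with the smallest p was TNFRSF1B (ENSG00000028137, chromosome 1, 12167003 to 12209228), the second receptor for tumour necrosis factor. It was at 0.239, 0.553 and 0.598 CPM in WT day 0 and at 0.186, 0.177 and 0.0604 CPM in WT day 4, where no library exceeded 3 counts. It was at 0.352, 0.243 and 0.237 CPM in DNMT1-AID day 0 and at 6.36, 4.66 and 5.37 CPM in DNMT1-AID day 4. Each DNMT1-AID day 4 library lay above all others, and the day effects differed with an adjusted p of 0.00315. In the other groups too few libraries held enough counts for the filter. TNFRSF1B thus entered the test through DNMT1-AID day 4, where it is high. PRF1 (ENSG00000180644, chromosome 10, 70597348 to 70602775), the pore-forming protein of cytotoxic lymphocytes, was at 8.81, 10.2 and 8.96 CPM in WT day 0 and 4.47, 3.18 and 2.90 CPM in WT day 4. In DNMT1-AID cells it was at 22, 30.4 and 29.5 CPM at day 0 and 43.9, 49.8 and 63.2 CPM at day 4. It fell in WT, by 1.41 on the log2 scale, and was higher in DNMT1-AID cells already at day 0, with a log2 fold change of 1.55 against WT (adjusted p = 0.00418) in the fit of 12 libraries. The difference of day effects was 2.35 (standard error 0.27, adjusted p = 0.00361). TNFRSF1B and PRF1 were the 2 genes that kept their call whichever of the 12 libraries was left out. For TNFRSF1B this is a description only, given how it entered the test. PTPRC, which marks leukocytes, was at most at 0.062 CPM, and the granzyme genes GZMA, GZMB and GZMH had 0 counts in the 12 libraries. The sum of 15 lymphocyte markers was between 0.814 and 1.90 CPM in the other groups and between 2.59 and 4.26 CPM in DNMT1-AID day 4. Summed myeloid markers were likewise between 0.124 and 0.665 CPM and between 1.69 and 2.21 CPM, and fibroblast markers between 1.56 and 8.82 CPM and between 9.58 and 13.8 CPM. Endothelial markers overlapped, with 0.124 to 1.31 CPM and 0.642 to 1.85 CPM. The part of these markers in the results was not tested.

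ATF5 (ENSG00000169136, chromosome 19, 49928702 to 49933935), a leucine zipper factor of the integrated stress response, was the 1 called gene of the 37 tested on the list of ATF4 and unfolded protein response genes. It was at 27.3, 33.5 and 22 CPM in WT day 0 and 15, 17 and 17.9 CPM in WT day 4, and at 20.3, 25 and 21.3 CPM in DNMT1-AID day 0 and 40.6, 35 and 38.4 CPM in DNMT1-AID day 4. The lines overlapped at day 0 and moved apart in opposite directions, with neither day effect past a log2 fold change of 1, and the difference was 1.51 (standard error 0.22, adjusted p = 0.0121). The list as a whole had a median difference of 0.20, and 18 of its members fell in WT and 13 in DNMT1-AID cells. Over all genes tested 6.42% fell in WT and 6.78% in DNMT1-AID cells, and 0.132% rose beyond WT.

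C3, the central complement component, and KRT23, a type I keratin, also rose beyond WT. C3 fell in WT and rose in DNMT1-AID cells, from 0.602 ± 0.149 to 0.202 ± 0.040 CPM and from 0.522 ± 0.115 to 2.08 ± 0.441 CPM (SD, n = 3), and the difference was 3.54 (standard error 0.57, adjusted p = 0.0243). KRT23 was at 20.3 to 25.8 CPM in the WT libraries of both days, at 27.6 to 32.3 CPM in DNMT1-AID day 0 and at 62.4 to 73.4 CPM in DNMT1-AID day 4. Its difference was 1.10 (standard error 0.18, adjusted p = 0.0270). SDK2, a cell adhesion molecule of the immunoglobulin superfamily, had at most 1.79 CPM, in DNMT1-AID day 4, with 2 groups at or under 3 counts. It may therefore have entered the test through DNMT1-AID day 4, where it is high, and its call is given as a description. MLXP1, a pseudogene, was called with each WT day 4 library at 1 count, while the libraries of the other groups held between 0.760 and 1.96 CPM, and its reads may stem from a similar gene. FBXO27 (ENSG00000161243, chromosome 19, 38990714 to 39032785), an F-box protein that binds glycoproteins, was the gene called lower. It was at 12.9, 13.3 and 11.2 CPM in WT day 4 and at 6.36, 7.34 and 6.54 CPM in DNMT1-AID day 4. The difference was -1.15 (standard error 0.20, adjusted p = 0.0437). Its DNMT1-AID day 4 libraries lay below all others, as for 7.38% of all genes, but the gene was called on these same libraries.

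For cancer/testis genes the difference of day effects could seldom be judged on the log scale. Of 131 genes on the list 21 were tested, and for 14 of these at least 1 group had no library above 3 counts. The 14 held at most 6 counts in any library outside DNMT1-AID day 4 and so passed the filter through that group, where they had to be high. How many of the tested members moved is therefore no evidence about the list, and the values below are a description. Beyond WT edgeR called 0, with an unadjusted p under 0.05 for 4, DESeq2 called 1, MAGEA8, and limma on log2(CPM + 1), an alternative chosen after seeing the data, called 10.

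MAGEA4 (ENSG00000147381, chromosome X, 151912509 to 151925170) had 365, 484 and 257 counts in DNMT1-AID day 4. It had 2, 2 and 0 counts in WT day 4, 1, 5 and 0 in DNMT1-AID day 0 and 0 in each WT day 0 library. No other group overlapped DNMT1-AID day 4, and its adjusted p for the difference was 0.958 by edgeR and 2.11e-06 by limma on log2(CPM + 1). TKTL1, a transketolase-like gene, had 143, 160 and 114 counts in DNMT1-AID day 4 and at most 5 in any other library. MAGEA8 had 46, 54 and 50 counts in DNMT1-AID day 4, and the other 9 libraries held 2 counts at most. MAGEA1 had 31, 47 and 19 counts in DNMT1-AID day 4 and 0 in the other 9 libraries. The other 7 members were above 3 counts in some library of each group, and 3 of them had a difference over 0. These were MAGEA6 with 2.56 (adjusted p = 0.277), CSAG3 with 0.37 (adjusted p = 0.555) and MAGEA2 with 0.22 (adjusted p = 0.902). MAGEA6, with at most 11 counts outside DNMT1-AID day 4, also passed the filter through that group. MAGEA2B had -0.57 (adjusted p = 0.757), MAGEA3 -0.37 (adjusted p = 0.475), MAGEB2 -0.31 (adjusted p = 0.522) and PRAME -0.14 (adjusted p = 0.750). MAGEA family members are close in sequence, so single members are uncertain. Apart from MAGEA4, these genes were chosen after their values were seen.

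**Figure D3:**
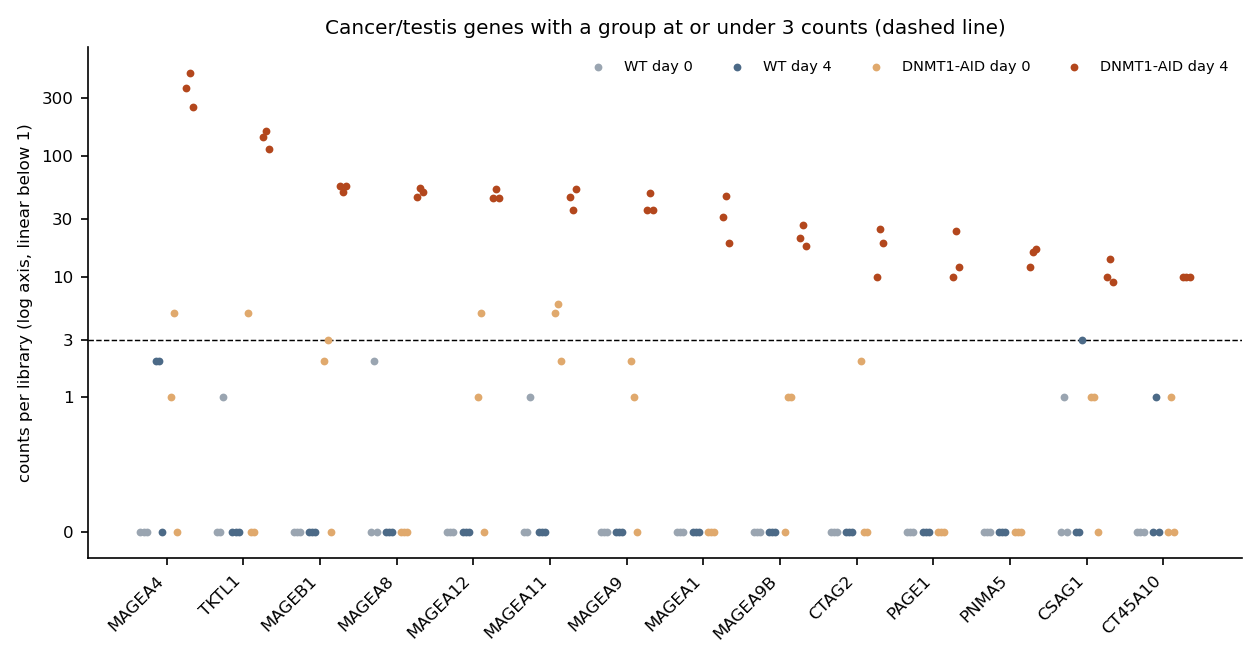
Counts per library of the 14 cancer/testis genes tested that had a group with no library above 3 counts (dashed line), on an axis that is logarithmic above 1 and linear below, with 3 points per group. These genes passed the filter through DNMT1-AID day 4, so that its points lie highest follows from how they were chosen, and the plot shows their levels there, with MAGEA4 between 257 and 484 counts.

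Some proliferation genes fell from day 0 to day 4 in each line, a step that crosses the alignment folders, and none was called beyond WT. Of 89 tested E2F and DNA replication genes 20 fell in WT and 34 in DNMT1-AID cells. Over all genes tested 6.42% fell in WT and 6.78% in DNMT1-AID cells. Beyond WT the number called was 0. In the lower direction 14 reached an unadjusted p under 0.05 and in the higher direction 0, and the median difference was -0.23. Over all genes tested 6.83% were lower and 5.90% higher at that unadjusted p. In 26 of the 89 every DNMT1-AID day 4 library lay below the other 9, which held for 7.38% of all genes. Of 77 mitosis genes 20 fell in WT and 35 in DNMT1-AID cells, with 0 calls beyond WT. In the lower direction 20 reached an unadjusted p under 0.05 and in the higher direction 0, and the median was -0.31. In 16 of the 77 every DNMT1-AID day 4 library lay below the other 9. The summed level of mitosis genes was 4001, 3977 and 3940 CPM in WT day 4 and 3988, 3475 and 3412 CPM in DNMT1-AID day 4, with DNMT1-AID replicate 1 inside the WT range. At day 0 it was between 5828 and 6226 CPM in WT and between 6261 and 6764 CPM in DNMT1-AID cells, without overlap.

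The remaining lists had no called member beyond WT. Epithelial-mesenchymal transition genes had a median difference of 0.34 over 26 members, and genes often hypermethylated in colorectal cancer had 0.33 over 27. Targets of the aryl hydrocarbon receptor, which indoles can activate, had 0.27 over 15, and imprinted genes 0.13 over 36. Genes of the DNA methylation machinery had a median of 0.07 over 37, p53 target genes -0.06 over 42 and cholesterol synthesis genes -0.22 over 32. ERK pathway output genes had 0.20 over 43, and hypoxia and glycolysis genes 0.09 over 37. Of 20 germline genes tested, 8 had a group with no library above 3 counts, so no median is given for them. Replication-dependent histone genes had 0.11 over 12, metallothioneins -0.09 over 4 and endogenous retrovirus-derived genes 0.25 over 4. Of 464 genes tested on the X chromosome 0 passed, while 24 had an unadjusted p under 0.05 in each direction. Over all genes tested 5.90% were higher and 6.83% lower at that unadjusted p.

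Genes that differed between the lines without auxin, or that stood out at day 4, were followed into the difference of day effects. At day 0, 3 genes were higher in DNMT1-AID than in WT cells (0.0209% of those tested) and 1 was lower (0.00696%), while a fit of only the 6 day 0 libraries called 0 higher and 1 lower. NXT2, an mRNA export factor on the X chromosome, was at 30.2 ± 5.43 CPM (SD, n = 3) in WT day 0 and reached 70.8 ± 9.69 CPM (SD, n = 3) in DNMT1-AID day 0, and its difference of day effects was 0.65 (standard error 0.20, adjusted p = 0.244). SULT1A1, a phenol sulfotransferase named after its values were seen, was at 8.48 ± 2.38 CPM in DNMT1-AID and 2.44 ± 0.193 CPM in WT day 0 (SD, n = 3), and its difference was 0.85 (adjusted p = 0.326). SEMA3A, a secreted axon guidance factor, was lower at day 0, with a log2 fold change of -2.72 against WT (adjusted p = 0.000104), and fell in WT by 1.20, so that its difference was 0.46 (standard error 0.31, adjusted p = 0.515). The growth factor FGF9 had a difference of -1.74 (standard error 0.50, adjusted p = 0.216). ANKRD22, an ankyrin repeat protein, had -1.51 (standard error 0.34, adjusted p = 0.115) by edgeR, with an adjusted p of 0.0148 by DESeq2. At day 4, 269 genes were higher in DNMT1-AID than in WT cells and 34 lower (1.87% and 0.237%). All 19 genes called beyond WT were among the 269. The day 4 libraries enter both comparisons, so this overlap is no separate support. Of the 269 genes, 104 had a group with no library above 3 counts.

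Cells with UHRF1 tagged, and those of the compound UHRF1-AID/DNMT1-AID line, share no library with the 12 and were compared with their own day 0. Of the 19 genes, 18 rose from day 0 to day 4 in UHRF1-AID cells, where 12.1% of tested genes rose. In the compound line 16 of the 19 rose, where 15.1% of tested genes did. These day effects were not set against WT, and in WT 10 of the 19 rose as well. By the file headers the UHRF1-AID day 4 libraries lie in the alignment folder of the day 0 libraries. Those of the compound line at day 4 lie in the other folder, so the 2 day effects are not alike in processing. APOL6, which did not pass the test in WT, had a log2 fold change of 5.85 in UHRF1-AID and 3.95 in the compound line. TNFRSF1B, which fell in WT, rose to 25.1 CPM in UHRF1-AID day 4 and 29.7 CPM in the compound line at day 4, with TMM scaling over all 24 libraries. ATF5 had log2 fold changes of 1.86 and 1.53 there, and C3 of 3.61 and 1.61. PRF1 had 3.47 in UHRF1-AID (adjusted p = 8.57e-05) and 1.32 in the compound line (adjusted p = 0.207). FBXO27 fell in both, with log2 fold changes of -1.28 and -1.63, where 9.82% and 11.5% of tested genes fell.

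How many genes were called beyond WT depended on single libraries. Without WT replicate 2 of day 0 only TNFRSF1B and PRF1 were called higher, and 0 interferon-stimulated genes were. Without WT replicate 3 of day 0, the library with the strongest trend with gene length, 86 genes were higher and 24 lower, and 18 interferon-stimulated genes were higher. Without WT replicate 2 of day 4, 6 genes were called higher, 4 of them interferon-stimulated. The log2 differences moved little, from 3.43 to 3.86 for IFI27, from 1.57 to 1.86 for IFI6 and from 2.19 to 2.55 for PRF1 over the 12 fits that left out 1 library. With an offset for gene length in each library 20 genes were called higher and 1 lower.

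**Figure D4:**
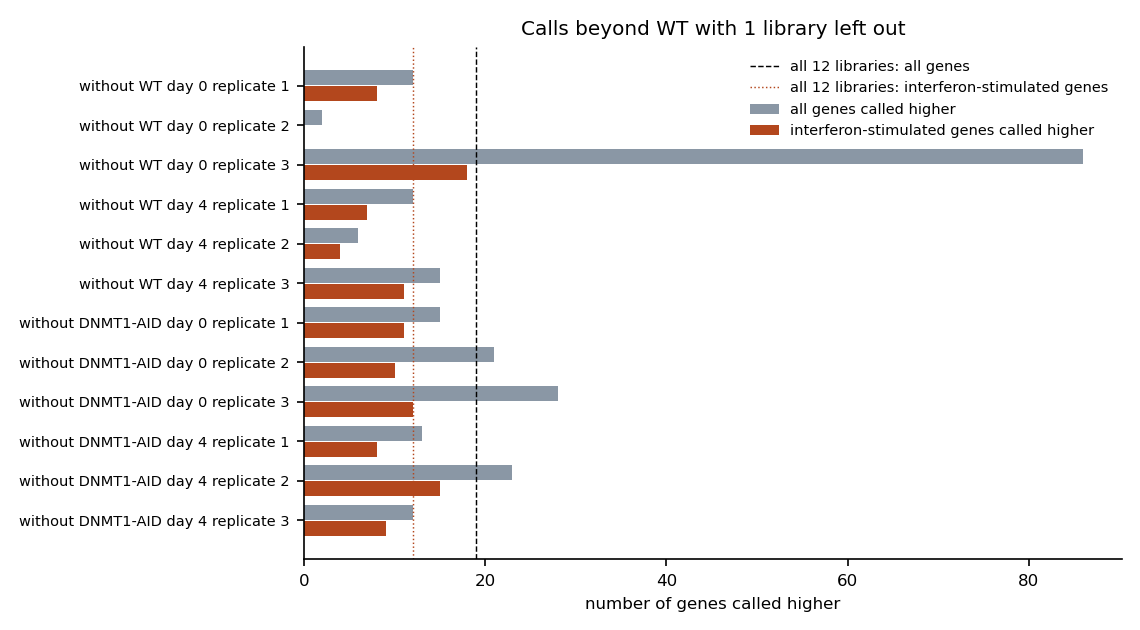
Number of genes called higher beyond WT (horizontal axis) with each of the 12 libraries left out in turn, for all genes in grey and interferon-stimulated genes in red, with the numbers from all 12 libraries (19 and 12) as dashed and dotted lines. The counts range from 2 to 86 for all genes and from 0 to 18 for interferon-stimulated genes.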

How the data were processed

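RNA of WT and DNMT1-AID HCT116 cells at day 0 and day 4 was analysed, in 4 groups of 3 libraries mapped from the sample labels. Libraries were prepared by the authors from RNA with NEBNext Ultra reagents and read from both ends. Trimmomatic removed adapters, STAR aligned the reads to hg38, and featureCounts assigned them to genes. The deposited tables give the raw counts per Ensembl gene of 1 library, without normalization. Whether counting used strand is not given in the sources used here, so genes that overlap, lie antisense or have close copies may be miscounted. Counts on 92 ERCC spike-in sequences entered neither the library sizes nor the tests. Symbols matched 58207 of 58735 genes.

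Counts were fitted with R 4.3.3 and edgeR 4.0.16 over the 12 libraries, with filterByExpr, TMM scaling, robust dispersions and the quasi-likelihood test (common biological coefficient of variation 0.189), following the thresholds of the study's methods. Standard errors are the absolute log2 value divided by the square root of F. Where no library of a group was above 3 counts, no fold is given. The UHRF1-AID and compound day effects were each fitted on 6 libraries. Alternatives were other scalings and filters, all 24 libraries, a replicate block, a length offset, DESeq2 1.42.0, other thresholds and leaving out each library. Limma on log2(CPM + 1) and leaving out 3 libraries were added after seeing the data. The fit was tested on simulated counts. The study counts the 3 libraries of a group as biological replicates, and the labels tie none of them to a culture or clone. Replicate pairs all differed by more than sampling noise, which would give a chi-square per degree of freedom near 1. In WT day 0 it was 3.66 between replicates 1 and 2, and 53 and 56.8 between these and replicate 3. In DNMT1-AID day 0 it was 11.7 between replicates 1 and 2, and 50.6 and 63 between these and replicate 3. Pairs of day 4 lay between 10.5 and 18.

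The values of 1 further gene are not reported here. The comparison, the members and the gene lists were chosen with earlier results of these data known. Named were DNMT1, UHRF1, up to 12 called genes in each direction with the smallest p, up to 3 called genes per list, and PRF1, NXT2, SEMA3A, FGF9, ANKRD22 and MAGEA4, which an earlier analysis had brought up. Figures were drawn with Python 3.11.15 and matplotlib 3.10.9.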

Additional observations from a re-analysis of the deposited data

Results flagged for a closer look

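The day effect differed between DNMT1-AID and WT cells, by edgeR's quasi-likelihood test of that difference with Benjamini-Hochberg adjustment, for the 20 called genes. The log2 difference was 2.35 for PRF1, 1.71 for OASL, 3.26 for PSMB8, 3.35 for IFITM1, 1.85 for BATF2, 1.73 for IFI6, 3.64 for IFI27, 1.51 for ATF5, 1.07 for IFITM2, 4.60 for APOL6 and 1.46 for IRF7. It was 3.54 for C3, 1.10 for KRT23, 2.55 for LAMP3, 3.26 for EPSTI1, 1.33 for PSMB9 and -1.15 for FBXO27. TNFRSF1B, SDK2 and MLXP1 had a group with no library above 3 counts and passed with adjusted p values of 0.00315, 0.0353 and 0.0437. Outside the comparison, ERCC spike-in sequences held between 0.891% and 1.44% of counts in the 6 day 4 libraries and 0 counts in the 6 day 0 libraries.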

How the results depend on the processing

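The direction of the called genes held under every alternative run. Over the named genes and alternatives, 472 differences kept their side of the threshold, 134 lost their call and 7 gained one. Groups at 0 counts, above all at day 0, limit what edgeR can judge. RLE size factors, dispersions without the robust option and an offset for gene length gave 19 to 21 genes higher and 1 lower. Without a minimum fold change 2 genes were lower, and at an adjusted p under 0.01 the counts were 2 higher, 0 lower and 0 interferon-stimulated. Without a filter on low counts they were 572, 23 and 33, with all 24 libraries 33, 6 and 7, with DESeq2 82, 10 and 24, and with limma on log2(CPM + 1) 125, 5 and 25. At least 10 counts in every library gave 11 higher and 0 lower. Without the 3 day 0 libraries whose counts fell with length, 73 genes were higher and 17 lower. Leaving out 1 library gave between 2 and 86 genes higher, between 0 and 24 lower and between 0 and 18 interferon-stimulated genes higher. At day 0, a fit of only those 6 libraries called 0 genes higher and 1 lower. Same-numbered libraries did not deviate together, with correlations from -0.681 to -0.000919, so the numbers do not pair them. With a replicate block within each line 8 genes were higher, 0 lower and 5 interferon-stimulated, and with a block across lines 12 were higher and 0 lower.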
